A study of Mus musculus with 8 samples.

Results

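Trehalase and a set of facilitative glucose transporters were followed in the brains of mice that drank trehalose, a disaccharide made of glucose. The 5 genes were Treh, Slc2a8, Slc2a1, Slc2a3 and Slc2a4, chosen as the enzyme that splits trehalose and transporters that carry its product or trehalose itself across membranes. They were found by gene symbol in the platform annotation, where each had 1 probe, and they are 5 of 19321 annotated genes. RNA was measured on 8 one-colour Cy5 arrays, 1 array per mouse, with 3 mice given trehalose for 1 day, 3 given trehalose for 10 days and 2 control mice given water and sampled at day 0. All were male C57Bl/6J mice labelled as 9 weeks old, fasted for 6 hours and perfused with heparinised buffer before the brain was taken. Cages held 3 mice, with no record of cage mates, and no water mice were sampled at 1 or 10 days, so trehalose and the time of sampling cannot be told apart. The labels name cortical tissue and the design text the left hemisphere, so the exact dissection was not settled.

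Trehalase is an enzyme anchored to the outer face of the membrane, best known from the brush border of the intestine and kidney, where it cleaves trehalose into glucose. Facilitative transporters of the Slc2 (GLUT) family let sugars cross membranes down their gradient without spending energy. In the brain, glucose passes the capillary wall and enters astrocytes mainly through GLUT1, the product of Slc2a1, and enters neurons mainly through GLUT3, the product of Slc2a3. GLUT8, the product of Slc2a8, sits largely on membranes inside the cell and carries trehalose in mouse liver cells. GLUT4, the product of Slc2a4, is the insulin-regulated transporter of muscle and fat and is also made in some neurons.

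An array carried 27456 spots: 23474 with probes, 2736 blank and 96 negative controls. The mean of the blank spots lay between 27.1 and 30.3 intensity units, and the limit for a signal above blank, the blank mean plus 2 SD, between 30.0 and 34.4. Between 86.3% and 92.1% of the probes lay above that limit, and the arrays correlated at 0.994 to 0.998 with each other across 21583 tested probes. Probes of the tissue marker lists lay above the limit, as most probes of the array did. All 15 probes of the neuron list and all 12 of the astrocyte list passed it on all 8 arrays. So did 15 of 16 of the brain endothelium list. The exception was the endothelial probe for Cdh5, above the limit on 7 arrays. Levels ran from 2.40 to 239 times the blank mean in the neuron list and 1.61 to 479 in the astrocyte list. In the endothelium list they ran from 1.06 to 32.4. Of the lists of other tissues, 5 of 9 muscle and fat probes and 6 of 9 kidney and gut brush border probes lay above the limit on all arrays, at no more than 6.17 times the blank mean, and 1 probe of each list was above it on 0 arrays. The headers also record the slope of the line that joins the first and second scanner gain. It was 0.477 to 0.478 on 3 arrays (10 day replicates 1 and 3 and control replicate 1) and 0.485 to 0.487 on the other 5, and the blank mean was 27.1 to 27.5 on the lower-slope arrays and 29.4 to 30.3 on the others.

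Trehalase RNA was barely above blank in every mouse. The spot of Treh (probe M200014257) read 37.6, 40.9 and 34.9 after 1 day of trehalose, 34.4, 34.9 and 31.8 after 10 days, and 37.6 and 35.1 in control. These values were 1.17 to 1.37 times the mean of the blank spots, and all 8 lay above the limit, but by a factor of only 1.03 to 1.23. With a limit of 3 SD in place of 2, the spot passed on 5 of 8 arrays. On 7 of 8 arrays at least 1 negative control read as high as Treh, with up to 10 of 96 doing so on a single array, and up to 27 of 2736 blank spots did so. By array the number of negative controls as high as Treh was 1, 0 and 3 after 1 day, 2, 1 and 10 after 10 days, and 1 and 6 in control. The signal of this probe was therefore not separated from the highest of the negative controls on most arrays. Of the 9 probes of the kidney and gut list, 6 lay above the limit on all 8 arrays, at up to 6.17 times the blank mean. Umod, a kidney tubule gene, passed it on 2 of 8.

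**Figure D1:**
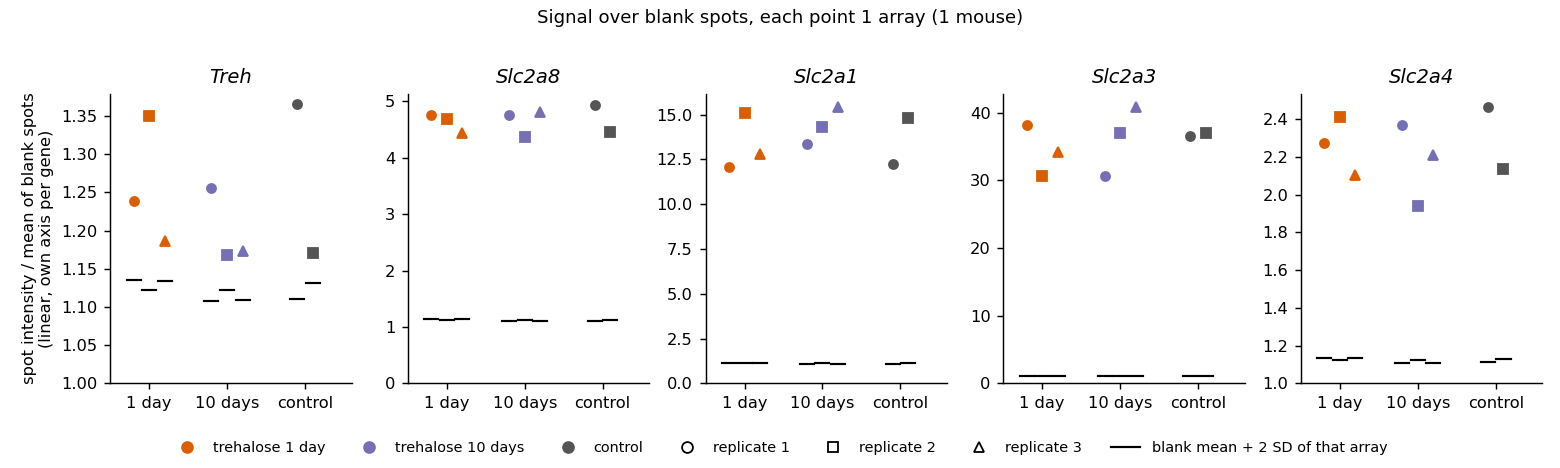
Spot intensity divided by the mean of the blank spots of the same array, for each of the 5 genes on its own linear axis, which starts at 1 for Treh and Slc2a4 and at 0 for the others. Each point is 1 array (1 mouse), coloured by group and shaped by replicate number, and the short black line under it is the blank mean plus 2 SD of that array. Treh sat just above the line, at 1.17 to 1.37, and the other genes stood clear of it.

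Normalized log2 intensities of Treh were 5.94, 6.00 and 5.91 after 1 day, 5.92, 5.91 and 5.85 after 10 days, and 5.97 and 5.91 in control. The groups overlapped, with the lowest value in a mouse of the 10 day group and the highest in a mouse of the 1 day group. Group means were 5.95 ± 0.05 after 1 day, 5.89 ± 0.04 after 10 days (SD, n = 3 each) and 5.94 ± 0.04 in control (SD, n = 2). The log2 difference from control was 0.01 (SE 0.04) at 1 day and -0.05 (SE 0.04) at 10 days, and the 10 day group differed from the 1 day group by -0.05 (SE 0.04), each with an adjusted p of 1.0 by limma. Background correction added an offset of 50, which compresses differences of dim probes, so that a doubling of the signal above the offset would read as only 0.24 for this probe and a halving as -0.13. Each slope class held 1 control mouse. On the lower-slope arrays the difference at 10 days was -0.08, from 2 mice of the 10 day group. On the higher-slope arrays it was 0.00, from 1 mouse against 1. With the mean of the blank spots subtracted instead and no offset, the difference of 10 days from control was -0.46 with a 95% interval of -1.14 to 0.22, and that of 1 day from control was 0.06 with an interval of -0.62 to 0.74. In that setting 10 days differed from 1 day by -0.52 (SE 0.26, interval -1.12 to 0.09, adjusted p = 1.0 by limma), the largest difference of any of the 5 genes over the 12 other settings.

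Slc2a8, the transporter with a reported role in trehalose uptake, read clearly above blank and varied little between mice. Its spot (probe M200002505) read 144.5, 141.9 and 130.4 after 1 day, 130.1, 130.6 and 130.6 after 10 days, and 136.0 and 133.5 in control, which was 4.38 to 4.95 times the blank mean. No blank spot and no negative control reached it on any of the 8 arrays. Some probes of other tissues read as high. Tested probes of the muscle and fat list ran from 1.06 to 5.62 times the blank mean. Those of the kidney and gut list ran from 1.05 to 6.17 times. The local background recorded at the Slc2a8 spot was 51.15 to 122.6. Normalized log2 intensities were 7.34, 7.32 and 7.34 after 1 day, 7.30, 7.34 and 7.25 after 10 days, and 7.30 and 7.36 in control. The whole span over the 8 mice was 0.11, and the groups overlapped. The log2 difference from control was 0.00 (SE 0.04) at 1 day with a 95% interval of -0.09 to 0.09, and -0.04 (SE 0.04) at 10 days with an interval of -0.13 to 0.06. Between 10 days and 1 day the difference was -0.04 (SE 0.04, interval -0.12 to 0.05). The adjusted p of each was 1.0 by limma. Within the slope classes, each with 1 control mouse, its differences lay between -0.03 and 0.01. At this level a doubling above the offset would read as 0.75, which lies outside all 3 intervals. This holds for the background correction used here, which leaves out the local background. With the local background subtracted, 10 days differed from 1 day by 0.42 (interval 0.145 to 0.699). What a doubling would read as in that setting was not computed.

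Slc2a1, which encodes the glucose transporter of brain capillaries, was well above blank and spread widely between mice of the same group. Its spot (probe M300006210) read 365, 457 and 376 after 1 day, 366, 426 and 418 after 10 days, and 337 and 444 in control, 12.0 to 15.4 times the blank mean. Normalized log2 intensities were 8.53, 8.83 and 8.73 after 1 day, 8.62, 8.87 and 8.77 after 10 days, and 8.47 and 8.93 in control. Both the lowest and the highest value belonged to control mice, so each trehalose group lay inside the range of the control group. Group means were 8.70 ± 0.15 after 1 day, 8.75 ± 0.12 after 10 days (SD, n = 3 each) and 8.70 ± 0.33 in control (SD, n = 2). The difference from control was 0.00 (SE 0.14, 95% interval -0.34 to 0.33) at 1 day and 0.05 (SE 0.14, interval -0.28 to 0.39) at 10 days. The 10 day group differed from the 1 day group by 0.06 (SE 0.13, interval -0.24 to 0.36), and the adjusted p by limma was 1.0 for each.

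The comparisons of Slc2a1 with control turned on which control mouse was used. Without control replicate 1 its difference was -0.23 at 1 day and -0.18 at 10 days, and without control replicate 2 it was 0.23 and 0.28. The control mice carry the sample numbers 1 and 2 in their titles. Over all groups Slc2a1 read 8.47 to 8.62 in mice numbered 1 and 8.83 to 8.93 in those numbered 2. This banding was noticed after the values were seen. With the number as a block, the difference from control was -0.01 (SE 0.06) at 1 day and 0.04 (SE 0.06) at 10 days. The part of the number in the other values of Slc2a1 was not tested. The arrays with the higher gain slope hold 1 control mouse and 1 mouse of the 10 day group. On them the difference was -0.23 at 1 day and -0.06 at 10 days, and 10 days differed from 1 day by 0.17. On those with the lower slope the 10 day mice differed from the control mouse by 0.23. With the slope class as a block, the difference of 10 days from 1 day was 0.26 (SE 0.12, adjusted p = 0.747 by limma), and no call changed.

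In a block of whole tissue, fewer cells of a type and less RNA per cell cannot be told apart. The summed intensity of the 16 endothelial marker probes was 4431 to 4694 after 1 day, 4657 to 5022 after 10 days and 4871 to 4953 in control. At 1 day 13 of these 16 probes had a negative difference from control, with a median of -0.05 against 0.00 over all tested probes. By limma 0 passed the adjusted threshold and 0 had an unadjusted p under 0.05, against 3.65% of all tested probes. At 10 days 8 of 16 were positive against control (median 0.00). Against 1 day 14 of 16 were positive (median 0.07 against 0.00 over all tested probes). Each time 0 passed the adjusted threshold and 1 of 16 had an unadjusted p under 0.05. Of all tested probes 2.00% had one against control and 3.50% against 1 day. Over the 8 mice the log2 intensity of Slc2a1 correlated with the mean of the endothelial list at r = 0.47 (rho = 0.52), and at 0.19 without the 2 mice farthest from the median of that list. It correlated at -0.82 (rho = -0.62, and -0.62 without the farthest 2 mice) with the neuron list, the value farthest from 0 of 50 correlations between the 5 genes and 10 marker lists. With the list of choroid plexus and ependyma, tissue that also makes GLUT1, it correlated at 0.66 (rho = 0.64, and 0.58 without the farthest 2 mice). The 7 probes of that list summed to 24822 to 33608 after 1 day, 30330 to 30363 after 10 days and 25917 to 30315 in control. Ttr, at 845 to 1283 times the blank mean, made up most of this sum. Quantile normalization gives the brightest probes shared values. Ttr was 14.85 on every 10 day array and in control replicate 2, and 14.62 in 1 day replicate 3 and control replicate 1. The near-equal sums at 10 days therefore do not measure this tissue. Against control 6 of these 7 probes were positive at 1 day (median 0.12) and 7 of 7 at 10 days (median 0.14). The medians over all tested probes were 0.00 at both times. By limma 2 of 7 had an unadjusted p under 0.05 at 1 day, against 3.65% of all tested probes. At 10 days 0 of 7 did, against 2.00%, and 0 passed the adjusted threshold at either time. With the remaining lists Slc2a1 correlated at -0.70 (erythroid), -0.69 (muscle and fat), -0.45 (kidney and gut) and -0.44 (pericyte and smooth muscle). The others were 0.45 (astrocyte), -0.23 (microglia) and 0.19 (oligodendrocyte). Without the farthest 2 mice the erythroid value was -0.65 and that of muscle and fat 0.05. The points share arrays and scaling, and these values describe the 8 mice only; the part of cell mixture in the spread of Slc2a1 was not tested.

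Slc2a3, the gene of the neuronal transporter GLUT3, read 1156, 931 and 1007 after 1 day (probe M300000381), 838, 1106 and 1106 after 10 days, and 1006 and 1108 in control. These spots were 30.6 to 40.8 times the blank mean. Normalized log2 intensities were 10.12, 9.81 and 10.11 after 1 day, 9.75, 10.20 and 10.13 after 10 days, and 9.99 and 10.20 in control. In each trehalose group 1 mouse lay below the others, replicate 2 at 1 day and replicate 1 at 10 days, and the groups overlapped. Means were 10.01 ± 0.17 after 1 day, 10.03 ± 0.24 after 10 days (SD, n = 3 each) and 10.09 ± 0.15 in control (SD, n = 2). The difference from control was -0.08 (SE 0.15, 95% interval -0.43 to 0.27) at 1 day and -0.06 (SE 0.15, interval -0.42 to 0.29) at 10 days. Between 10 days and 1 day it was 0.01 (SE 0.13, interval -0.30 to 0.33), and all 3 had an adjusted p of 1.0 by limma. With 1 control mouse left out the difference at 1 day ranged from -0.18 to 0.03. On the higher-slope arrays the difference from control was -0.18 at 1 day and 0.00 at 10 days, the latter from 1 mouse against 1. On the lower-slope arrays, with 1 control mouse, it was -0.05 at 10 days. The summed intensity of the 15 neuronal probes was 28032 to 29118 after 1 day, 27661 to 30093 after 10 days and 29006 to 30392 in control, and the correlation of Slc2a3 with that list was -0.25 over the 8 mice (rho = -0.17) and 0.67 without the 2 mice farthest from the median of the list, so its sign rested on those mice.

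Slc2a4, which encodes the insulin-regulated transporter, gave a dim signal above blank. It lay within the range of the tested muscle and fat probes, at 1.06 to 5.62 times the blank mean. Its spot (probe M200002952) read 69.0, 73.0 and 61.9 after 1 day, 64.9, 57.9 and 60.0 after 10 days, and 67.9 and 64.0 in control, 1.94 to 2.47 times the blank mean and above every blank and negative control spot. Normalized log2 intensities were 6.51, 6.56 and 6.46 after 1 day, 6.51, 6.42 and 6.41 after 10 days, and 6.51 and 6.51 in control. All 3 mice of the 10 day group lay below both control mice, although 10 day replicate 1 differed from them only past the second decimal. The difference at 10 days was -0.07 (SE 0.05, 95% interval -0.18 to 0.04, adjusted p = 1.0 by limma), and that of 10 days from 1 day was -0.07 (SE 0.04, interval -0.16 to 0.03). At 1 day it was 0.00 (SE 0.05, interval -0.11 to 0.11). For this probe a doubling above the offset would read as 0.53 and a halving as -0.36. On the lower-slope arrays the difference at 10 days was -0.06, from 2 mice against 1 control mouse. On the higher-slope arrays it was -0.10, from 1 mouse against 1. With the blank mean subtracted and no offset, the difference at 10 days was -0.18 with an interval of -0.45 to 0.09.

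**Figure D2:**
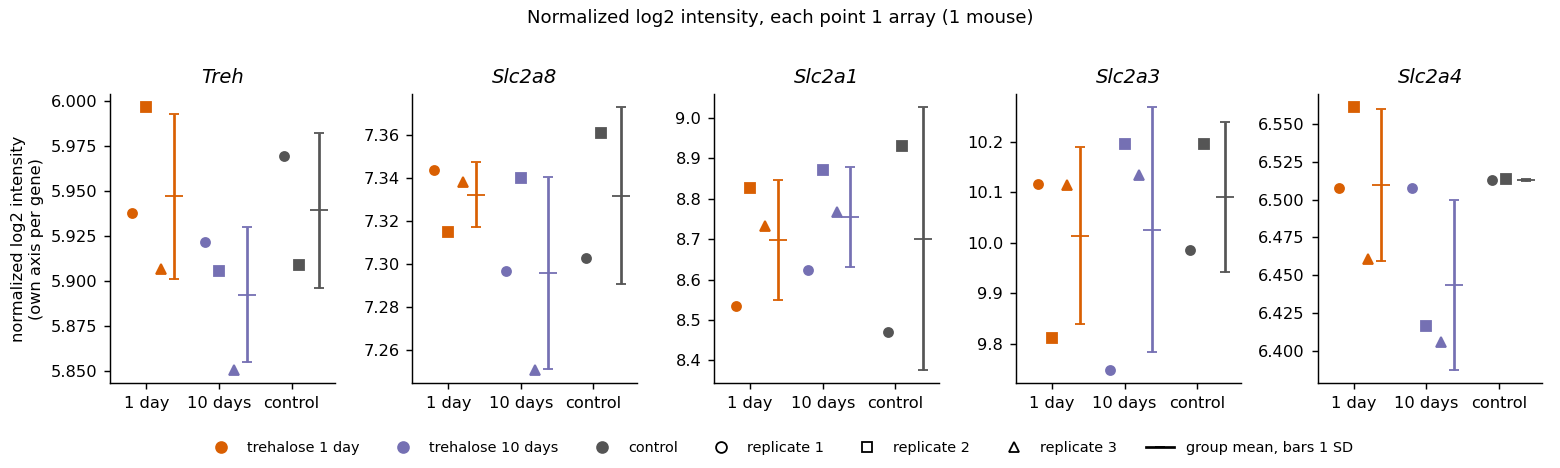
Normalized log2 intensity of the 5 genes on the 8 arrays, each gene on its own axis. Points are single mice, coloured by group and shaped by replicate number, and the bar beside each group is its mean with 1 SD (n = 3, 3 and 2). Control mice of Slc2a1 spanned 8.47 to 8.93, and only for Slc2a4 did the 10 day mice all lie below control.

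Read over the 3 groups, the means from high to low ran 1 day, control, 10 days for Treh and Slc2a8, and 10 days, control, 1 day for Slc2a1. For Slc2a3 they ran control, 10 days, 1 day, and for Slc2a4 control, 1 day, 10 days. No neighbours in any of these orders differed beyond their spread by the test. The moderated F test of limma over the 3 groups gave an unadjusted p of 0.379 for Treh, 0.553 for Slc2a8, 0.892 for Slc2a1, 0.870 for Slc2a3 and 0.252 for Slc2a4, and an adjusted p of 1.0 for each. The SD between mice of the same group was 0.04 for Treh and Slc2a8 and 0.05 for Slc2a4, against a median of 0.06 over all tested probes. It was 0.19 for Slc2a1 and 0.20 for Slc2a3, larger than for 96.7% and 97.2% of the tested probes. The intervals of these transporters were accordingly the widest of the 5 on this scale, where the offset compresses dim probes. With the blank mean subtracted and no offset, that of Treh was the widest. The SE at 10 days against control was then 0.29 for Treh, 0.18 for Slc2a1 and 0.17 for Slc2a3. It was 0.12 for Slc2a4 and 0.09 for Slc2a8.

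The first comparison asked what 1 day of trehalose did against water. No difference of the 5 genes passed the test: 0 of 5 passed the adjusted threshold of 0.05 by limma, where 0.0% of 21583 probes passed, and 0 of 5 had an unadjusted p under 0.05, against 3.65% of all probes. For 0 of 5 genes were the groups free of overlap, against 18.2% of all probes. The differences ran from -0.08 for Slc2a3 to 0.01 for Treh.

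After 10 days of trehalose against water, again 0 of 5 genes passed the adjusted threshold, with 0.0% of all probes past it. At an unadjusted p under 0.05 there were 0 of 5 genes and 2.00% of all probes. Slc2a4 was the 1 of 5 whose groups did not overlap, against 13.4% of all probes. The differences were negative for 4 of the 5 genes, between -0.07 and -0.04, and 0.05 for Slc2a1.

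Set against 1 day, 10 days of trehalose likewise gave 0 of 5 genes past the adjusted threshold, with 0.0% of all probes, and 0 of 5 at an unadjusted p under 0.05, with 3.50% of all probes. The groups overlapped for all 5 genes, and they did not for 8.39% of all probes. For any difference among the 3 groups, 0 of 5 genes passed the adjusted threshold (0.0% of all probes) and 0 of 5 had an unadjusted p under 0.05 (2.80%). The comparisons share mice: both contrasts with water use the same 2 control arrays, and the contrast between times reuses both trehalose groups.

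**Figure D3:**
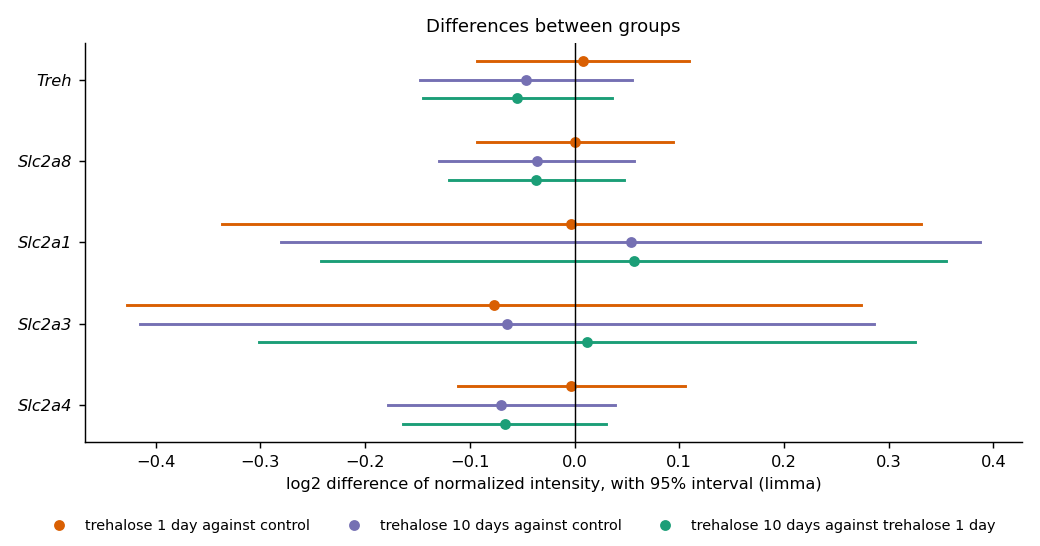
Log2 differences of normalized intensity between groups for the 5 genes, with 95% intervals from limma; each gene has 1 line per comparison, in the colours of the legend. All 15 intervals include 0, and those of Slc2a1 and Slc2a3 are the widest, reaching from -0.43 to 0.39.

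No other member of the facilitative sugar transporter family passed the test. Of 8 listed relatives, 7 had a probe, 1 of them (Slc2a9) a pair, and Slc2a13 had no probe under that symbol in the annotation. By limma 0 of 8 probes passed the adjusted threshold in any comparison and 0 had an unadjusted p under 0.05. Their differences from control ran from -0.10 to 0.04 at 1 day and from -0.14 to 0.03 at 10 days, with medians of 0.00 and -0.03 against 0.00 over all tested probes at both times. The lowest F p was that of a probe for Slc2a9, a urate and sugar transporter, with 6.57 ± 0.08 after 1 day, 6.53 ± 0.08 after 10 days (SD, n = 3 each) and 6.66 ± 0.11 in control (SD, n = 2). The other Slc2a9 probe did not share this: it differed from control by 0.01 at both times, where the first differed by -0.10 and -0.14. Slc2a2, the transporter of liver and pancreatic beta cells, followed with a difference of -0.05 at both times, and it passed the blank limit on 4 of 8 arrays.

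Genes that move sugar by other means showed no call either. Sodium-coupled transporters pull glucose in together with sodium ions, and Slc50a1 encodes the mouse SWEET sugar transporter. All 8 genes of that list had a probe, 0 of 8 passed in any comparison by limma (0 at an unadjusted p under 0.05), and 7 of 8 differences at 1 day were positive, with a median of 0.02. Slc5a1, which encodes the intestinal sodium-glucose cotransporter SGLT1, was 7.50 ± 0.01 after 1 day, 7.41 ± 0.06 after 10 days (SD, n = 3 each) and 7.39 ± 0.12 in control (SD, n = 2). Its difference from control was 0.11 (SE 0.06) at 1 day and 0.03 (SE 0.06) at 10 days, and Slc5a10, a cotransporter of fructose and mannose, had 0.06 and -0.04.

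Among other sugar-splitting hydrolases the lysosomal enzyme gene Gaa had the lowest unadjusted F p of all 6 lists. Gaa encodes acid alpha-glucosidase, which frees glucose from glycogen in lysosomes. Its log2 intensities were 10.72, 10.85 and 10.88 after 1 day, 10.72, 10.63 and 10.66 after 10 days, and 10.51 and 10.59 in control. All 6 trehalose mice lay above both control mice, and 4.73% of all tested probes had all 6 on 1 side of both controls. The difference from control was 0.27 (SE 0.06) at 1 day and 0.12 (SE 0.06) at 10 days, and that of 10 days from 1 day was -0.15 (SE 0.05), with an unadjusted F p of 0.00581 and an adjusted p of 1.0 by limma. Gaa was thus not past the threshold over all probes. Of the 11 listed hydrolases, 7 had a probe and 6 were tested, and 0 of 6 passed in any comparison. At an unadjusted p under 0.05 there was 1 of 6 at 1 day, 0 at 10 days and 1 between the times. The shares of all tested probes were 3.65%, 2.00% and 3.50%. Gba2, the non-lysosomal glucosylceramidase, had 0.08 (SE 0.10) at 1 day and 0.01 (SE 0.10) at 10 days.

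Glucose that has entered a cell is trapped by phosphorylation. Hk1, the main hexokinase of the brain, was 8.10 ± 0.03 after 1 day, 8.15 ± 0.04 after 10 days (SD, n = 3 each) and 8.22 ± 0.04 in control (SD, n = 2). Its difference from control was -0.12 (SE 0.04) at 1 day, with an unadjusted p of 0.0199 and an adjusted p of 1.0 by limma, and -0.06 (SE 0.04) at 10 days. All 3 mice of the 1 day group, at 8.08 to 8.13, lay below both control mice, at 8.19 and 8.24, in a comparison where 18.2% of all probes had no overlap. Hkdc1, a related hexokinase, differed by -0.12 (SE 0.09) at 1 day and -0.03 (SE 0.09) at 10 days. Of 8 listed genes 6 had a probe and were tested, and 0 passed in any comparison. At 1 day 1 of 6 had an unadjusted p under 0.05, against 3.65% of all tested probes, and 0 did in the other comparisons.

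Trafficking genes carry GLUT4 vesicles between the cell interior and its surface. Of 16 listed genes 15 had a probe, and 0 of 15 passed in any comparison by limma, with 0 at an unadjusted p under 0.05. Medians of their differences were -0.01 at 1 day, 0.00 at 10 days and -0.01 between the times. The lowest F p were those of Aspscr1, the GLUT4 tether TUG, at -0.03 (SE 0.05) at 1 day and -0.11 (SE 0.05) at 10 days, and Ralgapa2, a subunit of a Ral GTPase-activating complex, at 0.02 (SE 0.05) and 0.10 (SE 0.05).

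The last list held genes that regulate transporter expression or turnover. All 12 had a probe, 14 probes in all, and 0 of 14 passed in any comparison by limma. At an unadjusted p under 0.05 there was 1 of 14 at 1 day, 0 at 10 days and 1 between the times. Of all tested probes 3.65%, 2.00% and 3.50% had one. Mlxip, a sugar-sensing transcription factor, was 7.80 ± 0.07 after 1 day, 8.04 ± 0.18 after 10 days (SD, n = 3 each) and 7.84 ± 0.13 in control (SD, n = 2), so that 10 days differed from 1 day by 0.24 (SE 0.09, unadjusted p = 0.0336, adjusted p = 1.0). Prkaa1, a catalytic subunit of AMP-activated kinase, differed from control by 0.15 (SE 0.06) at 1 day and 0.10 (SE 0.06) at 10 days. Txnip and Arrdc4, arrestin-domain genes that sugar-sensing factors switch on and whose products draw glucose transporters off the cell surface, differed from control by -0.06 and -0.02 at 1 day and by 0.00 each at 10 days.

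**Figure D4:**
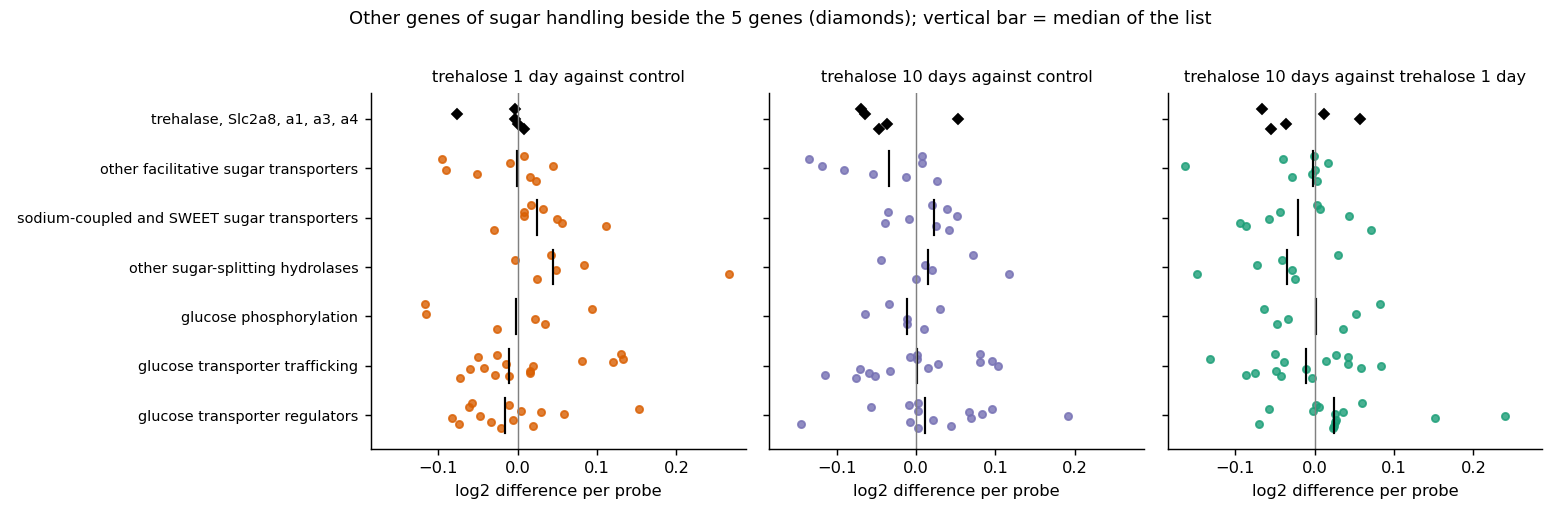
Log2 difference of each tested probe in 6 lists of sugar-handling genes (circles), with the 5 genes above them (diamonds) and the median of each list as a vertical bar. The panels are the 3 comparisons, and the vertical offset within a list only separates points. Medians of the lists lie between -0.03 and 0.05 in the 3 panels; the circle farthest to the right at 1 day is Gaa, at 0.27, and that at 10 days against 1 day is Mlxip, at 0.24.

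Across the 8 mice, Treh and Slc2a4 ran most alike of the 10 pairs among the 5 genes, at r = 0.85 (rho = 0.83). Both were lowest in 10 day replicate 3 and highest in 1 day replicate 2. Treh was not separated from the highest negative controls on most arrays. How much of its pattern over arrays is background, here and in the ranking that follows, was not tested. The other 9 pairs lay between -0.61 and 0.35. The remaining tested probes were then ranked by correlation with each gene over the same 8 arrays. Treh was followed most closely by Pigs (r = 0.97), Tnni1 (0.97) and Rasa4 (0.96). For Slc2a8 they were Gpr179 (0.97), Spry4 (0.96) and Aqp5 (0.96), and for Slc2a1 they were Zfp459 (0.97), Abr (0.97) and Rbms2 (0.96). Slc2a3 ran with Ubtf (0.98), Twsg1 (0.97) and Ppp1r1a (0.97), and Slc2a4 with Olfr1176 (0.98), Skida1 (0.97) and Socs1 (0.96). With 8 arrays and 21572 probes to choose from, between 39 and 60 probes exceeded r = 0.9 for each gene, so these names describe the arrays and no more.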

How the data were processed

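Total RNA of 8 mouse brains was amplified, labelled with Cy5 and hybridised, per the labels' protocols. Each deposited scanner file gives an intensity per spot, which per the file headers is the pixel median joined over 3 gains, with a local background and flags. The authors' deposited table holds a processed intensity per probe, a straight line of the spot intensity scaled to a median of 25, with 1502 to 2763 empty probes per array; it was used as an alternative. Scan software, dates and slides are not given in the sources used here. Protein and probe sequences were not used here.

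The deposited spot medians were turned into log2 intensities with limma 3.58.1 under R 4.3.3: normexp background correction with an offset of 50, 10 flagged probe spots set to missing (0 of them on the 5 genes), quantile normalization, and the mean over spots of a probe. Probes above the blank mean plus 2 SD on at least 2 arrays were tested, 21583 in all. The 8 arrays entered 1 fit with 3 groups (5 residual degrees of freedom), with contrasts moderated by eBayes and Benjamini-Hochberg adjustment over all tested probes at a threshold of 0.05. Precision is limited by the number of arrays. The procedure was tested on simulated data. Alternatives varied the background, normalization, filter, variance model, blocks and arrays included.

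The 5 genes and all lists were chosen with earlier results of these data known. By rule, the 5 genes and their 3 most similar probes were named. So were the 2 genes of each of the 6 sugar-handling lists with the lowest F p. Marker lists were given by sums and counts. Slc50a1, Txnip, Arrdc4, Cdh5, Umod and Ttr were added after their values were seen. Slc2a13 was named as the listed relative without a probe.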

Additional observations from a re-analysis of the deposited data

How the results depend on the processing

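In 12 other settings and 8 fits that each left out 1 array, 0 of the 5 genes passed the adjusted threshold by limma in any comparison, and the smallest adjusted p was 0.535. Of 180 differences under the 12 settings, 20 changed sign; the cause was not tested. Subtracting the local background column gave Slc2a8 -0.18 and Slc2a4 0.198 at 1 day against control, Slc2a8 0.24, Slc2a1 -0.30 and Slc2a4 0.0787 at 10 days against control, and Slc2a8 0.42 and Slc2a1 -0.11 at 10 days against 1 day. Of these, Slc2a8 at 10 days against 1 day (95% interval 0.145 to 0.699) and Slc2a4 at 1 day against control (0.026 to 0.369) had an unadjusted p under 0.05, the only 2 of the 180 that did, with adjusted p of 0.535 and 0.671 by limma. At 1 day against control, median scaling gave Treh -0.0042 and Slc2a1 0.0143, the authors' table Treh -0.0216 and Slc2a8 -0.0499, and array weights Slc2a4 0.0018. The authors' table gave Slc2a8 0.0335 at 10 days against 1 day. The number that opens each description, as a covariate, gave Slc2a8 -0.00037 and Slc2a1 0.0178 at 1 day against control and Slc2a3 -0.0244 at 10 days against 1 day. The gain slope as a block, added after seeing the data, gave Slc2a8 -0.031 and Slc2a4 0.0082 at 1 day against control and Slc2a8 0.0055 at 10 days against 1 day. With a limit of 3 SD, Treh was above blank on 5 of 8 arrays, and with an upper percentile of the blanks as the limit on 8.

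Over all tested probes the count past the threshold, 0 in each comparison as reported, was 1 at 10 days against control and 1 at 10 days against 1 day with the blank mean subtracted and with trended robust variances, and 2 in each comparison with control without control replicate 1.

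The sample numbers in the titles were tried as a replicate block. Same-numbered mice deviated from their group means with correlations of -0.02 to 0.26 over 7 pairs, and differently numbered mice with -0.32 to 0.21 over 14 pairs. The numbers were to count as pairs only if every same-numbered pair passed 0.1, so they were not used. With 2 control mice, deviations from their mean mirror each other, so these pairs are not independent. The block lowered the median SD between mice over all tested probes from 0.064 to 0.055. Whether the numbers pair the mice was not settled. Of the 7 pairs 6 lay at 0.12 to 0.26 and 1 at -0.02, and not every mouse correlated best with its own number: 1 day replicate 3 correlated at 0.21 with 10 day replicate 2 and at 0.12 with 10 day replicate 3. The block gave Slc2a4 0.0186 at 1 day against control, which changed sign, and changed no call; the count of called probes was 0 with and without it.

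Leaving out 1 array in turn moved the difference of 1 day from control between -0.023 and 0.038 for Treh, -0.0286 and 0.0299 for Slc2a8, -0.23 and 0.23 for Slc2a1, -0.184 and 0.0307 for Slc2a3, and -0.0288 and 0.0215 for Slc2a4. That of 10 days from control lay between -0.08 and -0.02 for Treh, -0.06 and -0.0065 for Slc2a8, -0.18 and 0.28 for Slc2a1, -0.171 and 0.0733 for Slc2a3, and -0.10 and -0.05 for Slc2a4. That of 10 days from 1 day lay between -0.07 and -0.03 for Treh, -0.06 and -0.01 for Slc2a8, -0.0254 and 0.122 for Slc2a1, -0.0883 and 0.151 for Slc2a3, and -0.10 and -0.04 for Slc2a4, which without 10 day replicate 1 had an unadjusted p of 0.0498 (adjusted p = 0.865 by limma). For Treh, signal over background limits what could be seen. Leaving out a control mouse leaves 1, assumed to vary like the other groups.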

Other observations

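Slc2a1 fell into bands by the sample number in the titles. Its log2 intensity was 8.47 to 8.62 in the 3 mice numbered 1, 8.83 to 8.93 in the 3 numbered 2 and 8.73 to 8.77 in the 2 numbered 3, with no overlap between numbers, although numbers 1 and 2 each hold a mouse of all 3 groups. Of 21573 probes measured on all arrays, 502 (2.33%) separated all 3 numbers in this way. With the number as a block its SD between mice was 0.07, against 0.19 without it, and the difference from control was -0.01 at 1 day (95% interval -0.16 to 0.13) and 0.04 at 10 days (interval -0.10 to 0.18). None of the other 4 genes separated all 3 numbers. The labels do not say what the numbers mean, and the banding was noticed after the values were seen.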
